A study of Mus musculus with 4 samples.

Results

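Keratins are the intermediate filament proteins of epithelial cells, and the keratin genes measured here are the 54 rows, of 55450 genes in the deposited matrix, whose symbol is Krt followed by a number and at most 1 letter. They were picked out by symbol alone, though the family was chosen with earlier results of these data known. Of these, 28 encode type I and 26 type II keratins, and 27 lie on chromosome 11 and 27 on chromosome 15 of the mouse genome build GRCm38. At least 1 molecule was counted for 39 of them and none for 15, and 18 had 100 or more molecules. Those 18 genes are described by name, and the other 21 detected genes by their counts.

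The cells came from tumours of 4T1, a mouse mammary carcinoma line, grown from 1000000 cells in a flank of female BALB/c mice aged 6 to 8 weeks. In the labels, 2 samples received PBS (phosphate-buffered saline) and 1 sample TIOs, dead macrophages of a macrophage line loaded with nanoparticles that drive lipid peroxidation under near-infrared (NIR) light, each by vein on day 7. A further sample was left unassigned, because its title and its protocol name different injections. All of the mice, PBS mice included, had the tumour lit at 980 nm and 1.0 W cm-2, each time for 5 min, on day 8, day 9 and day 10, which gives the group name TIOs+NIR3, and tumours were taken on day 13. Cells were sorted for CD45, the surface protein of leucocytes, and profiled by droplet RNA sequencing, which counts molecules by unique molecular identifiers (UMIs) at the 3' end of transcripts, so that counts do not scale with gene length.

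A keratin filament is built from pairs of 1 type I and 1 type II protein, so epithelial cells express the types together and in characteristic couples. Krt8 (type II) and Krt18 (type I) form the filaments of simple, single-layered epithelia such as the luminal cells of the mammary gland, and Krt7 and Krt19 are frequent additions there. Krt5 and Krt14 mark the dividing basal layer of stratified epithelia such as epidermis, Krt1 and Krt10 replace them in the layers above, and Krt6a, Krt6b, Krt16 and Krt17 are switched on in hair follicles, in wounds and under stress.

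The matrix joins 4 libraries, numbered 1 to 4 by the barcode suffix. The suffixes could not be tied to the labelled samples, so each is a library of unknown treatment, treatments were not compared, and no p-value is given. Levels are UMIs per 10000 UMIs of the summed counts of a group of cells, with exact 95% Poisson intervals, and shares of cells carry exact (Clopper-Pearson) 95% intervals. Both cover counting error only, since no group of cells has a replicate of known treatment. Of 33064 barcodes, 32133 had at least 300 genes and at most 15% mitochondrial UMIs, with library medians of 11698, 2641.5, 2695 and 7182 UMIs per cell. Among them, 95 barcode sequences occurred in more than 1 library. Tumour cells were gated on at least 4 of 15 epithelial genes, none of them a keratin, and gave 2651 cells in library 1, 105 in library 2, none in library 3 and 1 in library 4. Keratinocyte-like cells were gated on at least 3 UMIs of both Krt5 and Lgals7, an epidermal galectin, and were 51 cells, all of library 1. Other barcodes where a second lineage scored above 0.5 of the best were set apart as mixed (3631), and 1690 scored for none. The keratinocyte-like gate overrode these labels and the tumour gate, so its cells were not screened for a second lineage. The lineages were tumour, leucocyte, fibroblast with pericyte, and endothelial, so mixtures of 2 leucocyte types were not set apart. The gated leucocytes were 19757 cells. Doublets were not removed, and the tumour keratin level with the highest 5% of doublet scores left out is given with the other alternatives. A Ptprc UMI, the transcript of CD45, was found in 13.7% of tumour cells (12.4 to 15.1%), in 13.7% of keratinocyte-like cells (5.70 to 26.3%) and in 74.6% of leucocytes. In library 4, 51.2% of fibroblast-gated cells held a Ptprc UMI, against 16.8 to 21.9% in libraries 1 to 3.

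The name keratinocyte-like was checked against 13 fixed markers, 2 of them the gate's own. All 13 were detected in these cells. Without Krt5 and Lgals7, which the gate fixed, the other 11 summed to 103, against 5.13 in tumour cells and 1.17 in leucocytes. Trp63, the p63 transcription factor of basal epidermis, stood at 1.31 against 0.0157 in tumour cells, and Col17a1, a hemidesmosome collagen, at 2.22 against 0.0124. Calml3 was the lowest of the list, with 1 UMI. Of the lists for other cell types, the 12 monocyte or macrophage markers summed to 8.01 in keratinocyte-like cells and 2.59 in tumour cells, and the 8 neutrophil markers to 4.63 and 1.38, of which Mmp9 alone made 4.31 in keratinocyte-like cells. The 6 B cell markers had no UMI there. The part of other cells in the values below was not tested.

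The promoters of 4 type II or type I genes on chromosome 15 are shown because the results turn on them: Krt8, Krt18 and Krt7, the leading keratins of tumour cells, and Krt5, which gated the keratinocyte-like cells. The sequences are from RefSeq on GRCm38.p6, 250 bases before and 20 after the RefSeq start of each gene, written 5′ to 3′ on the strand of the gene. The windows are chr15:102004323-102004592 (minus strand) for Krt8, chr15:102027966-102028235 (plus strand) for Krt18, chr15:101412153-101412422 (plus strand) for Krt7 and chr15:101712886-101713155 (minus strand) for Krt5. Capitals mark matches on either strand to any motif searched. The first motif was TATAAA, found in many core promoters. The second was ATAAAAG, another form of it. The third was GGGCGG, known as the GC box. The fourth was TGANTCA, to which AP-1 factors bind. Matches to TATAAA and ATAAAAG can overlap, as they do in Krt8.
Krt8: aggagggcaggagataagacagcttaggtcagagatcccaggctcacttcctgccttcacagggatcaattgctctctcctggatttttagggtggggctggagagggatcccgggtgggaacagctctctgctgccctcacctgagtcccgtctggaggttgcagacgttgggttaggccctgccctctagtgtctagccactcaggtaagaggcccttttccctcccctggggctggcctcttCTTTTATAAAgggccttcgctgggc
Krt18: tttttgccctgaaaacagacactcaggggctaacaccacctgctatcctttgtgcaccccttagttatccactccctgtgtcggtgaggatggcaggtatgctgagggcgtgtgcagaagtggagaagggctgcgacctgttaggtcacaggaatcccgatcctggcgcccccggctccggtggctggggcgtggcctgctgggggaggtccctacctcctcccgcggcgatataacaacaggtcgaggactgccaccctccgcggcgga
Krt7: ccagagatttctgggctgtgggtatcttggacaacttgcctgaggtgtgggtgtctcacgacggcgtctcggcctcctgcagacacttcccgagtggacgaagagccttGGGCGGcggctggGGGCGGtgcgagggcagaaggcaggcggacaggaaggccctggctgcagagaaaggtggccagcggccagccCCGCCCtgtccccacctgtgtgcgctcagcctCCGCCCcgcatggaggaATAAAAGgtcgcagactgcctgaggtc
Krt5: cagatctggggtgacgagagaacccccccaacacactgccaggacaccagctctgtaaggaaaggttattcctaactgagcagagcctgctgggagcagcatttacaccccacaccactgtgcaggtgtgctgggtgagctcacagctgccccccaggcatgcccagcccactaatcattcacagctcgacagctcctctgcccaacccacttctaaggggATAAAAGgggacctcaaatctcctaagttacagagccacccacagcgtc

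Krt8 holds TATAAA on both strands and ATAAAAG on the opposite strand in a single run of capitals next to the start, Krt7 holds 4 copies of GGGCGG and 1 of ATAAAAG, Krt5 holds ATAAAAG, and Krt18 holds none of these letters in this window. Over all 32851 promoter windows of the table, 12.9% held TATAAA, 5.09% ATAAAAG, 34.1% GGGCGG and 7.23% TGANTCA. Windows were available for 36 of the keratin genes. TATAAA was in those of 18 genes, ATAAAAG in those of 13, GGGCGG in those of Krt7 and Krt75, and TGANTCA in those of Krt13. A match is a description of letters and not of a bound factor. The gene bodies of Krt8 (chr15:101996698-102004482, minus strand) and Krt18 (chr15:102028180-102032027, plus strand) lie next to each other with 23697 bases between them and point away from each other.

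The 54 genes gave 675877 UMIs, and these were very unevenly spread over the libraries, at 57.9, 5.17, 0.338 and 0.387 UMIs per 10000 in libraries 1 to 4. Library 1, which holds nearly all of the tumour cells, was thus the keratin library. Tumour cells held 69.5% of all keratin UMIs and keratinocyte-like cells 4.61%, while mixed barcodes held 18.3%, barcodes of no type 3.19% and leucocytes 2.89%. Simple epithelial keratins (7 genes) made 86.7% of all keratin UMIs, basal keratins (3 genes) 7.65%, wound or stress keratins (4 genes) 4.67% and suprabasal keratins (4 genes) 0.771%. The keratins of hair, hair follicle, mucosa and other sites held the remainder.

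The cell types differed in which of these roles they used. In tumour cells simple keratins stood at 67.8, basal at 4.00, wound or stress at 2.55 and suprabasal at 0.237. In keratinocyte-like cells the order was turned, with basal keratins at 190, wound or stress at 94.8, simple at 13.0 and suprabasal at 4.04. The summed keratin level was 74.6 (74.4 to 74.9) in tumour cells and 302 (299 to 306) in keratinocyte-like cells. Krt5, which the gate required, gave 53.0 of the basal level and of this total, while Krt14, not in the gate, was at 136. The order depended on the gate. Without any keratin in it the gate took 721 cells, 520 of them tumour cells by the main gate. There Krt14 was at 12.1 and Krt8 at 23.0. Type I keratins, the partners of type II in every filament, made 58.7% of the keratin UMIs of tumour cells in library 1, 51.4% in library 2 and 65.0% in keratinocyte-like cells.

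**Figure D1:**
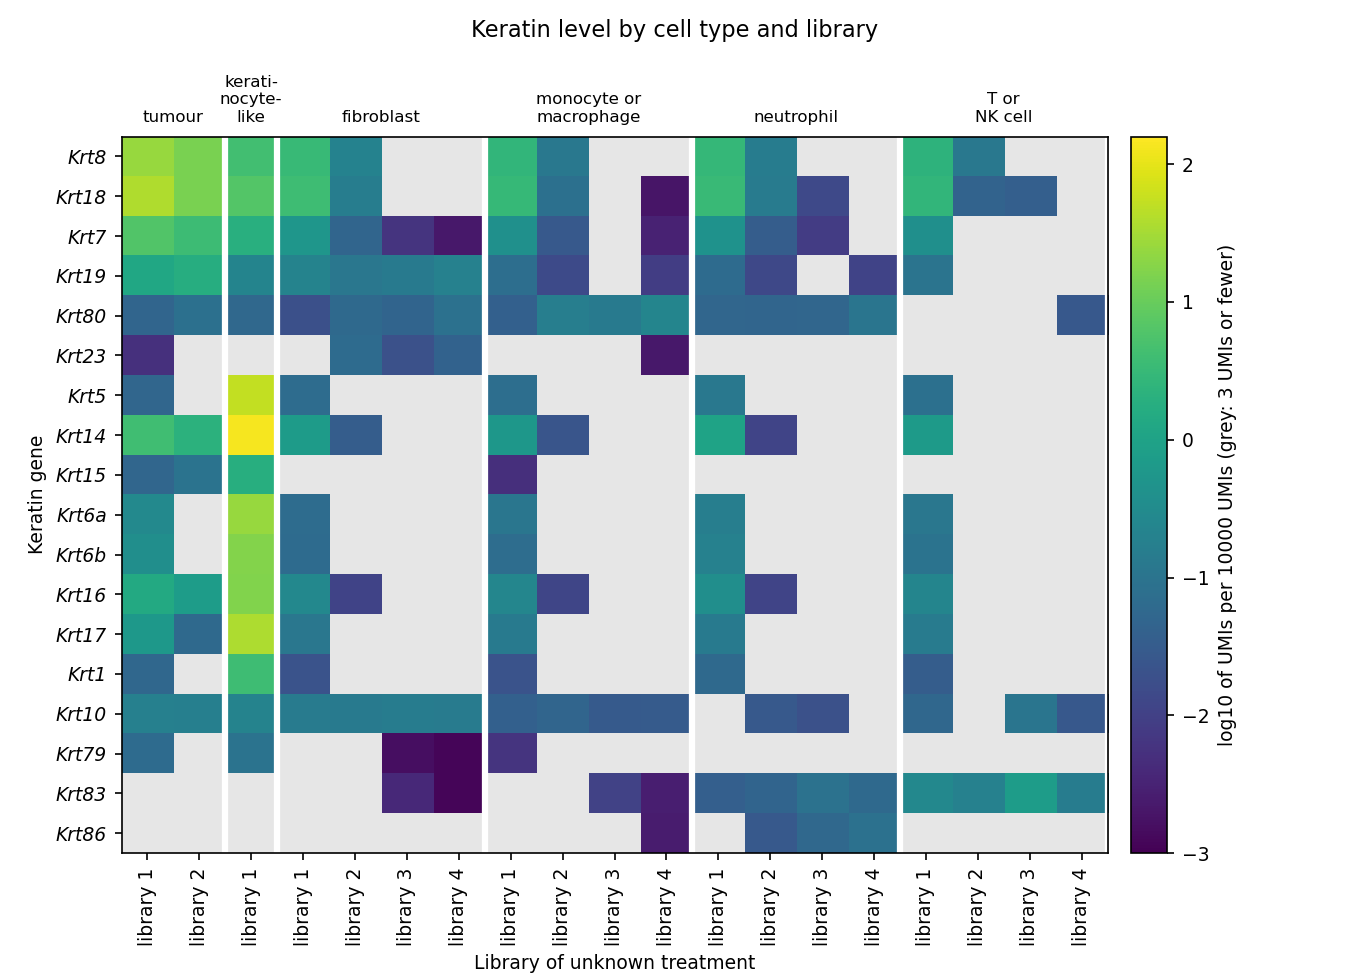
Heat map of the 18 keratin genes with 100 or more UMIs (rows) by cell type and library of unknown treatment (columns), coloured by the log10 of UMIs per 10000; grey marks 3 UMIs or fewer. Krt8 and Krt18 lead in tumour cells, Krt14 and Krt5 in keratinocyte-like cells, and in library 1 the same simple keratins are counted at lower levels in every other type.

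Krt18 and Krt8, the pair of simple epithelia, were the leading keratins of tumour cells and were found in nearly all of them. Krt18 stood at 38.2 (38.0 to 38.3) in library 1 and 14.3 (14.0 to 14.6) in library 2, and over single cells its median was 35.4 in library 1 and 11.2 in library 2. Krt8 stood at 25.1 (25.0 to 25.3) and 14.6 (14.2 to 14.9), with medians of 23.0 and 11.3. In library 1 Krt18 was above Krt8, and in library 2 their intervals overlapped. Both were detected in 2644 of the 2651 tumour cells of library 1 and in all 105 of library 2. The middle 90% of library 1 cells lay between 12.3 and 73.6 for Krt18 and between 7.59 and 50.7 for Krt8, so the genes varied several-fold among cells but were absent from almost none. Across the tumour cells Krt8 and Krt18 levels on a log2 scale correlated with Pearson's r of 0.46 in library 1 (2625 cells) and 0.54 in library 2 (104 cells) after each cell was thinned to 2000 UMIs. With all UMIs of each cell the values were 0.74 and 0.84. Cells of a library share its depth and free RNA, so these are descriptions without a test.

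Krt7 and Krt19, which accompany Krt8 and Krt18 in ductal epithelium, ranked lower and varied more. Krt7, type II (chr15:101411043-101430313), stood at 6.24 (6.17 to 6.30) in library 1 and 3.63 (3.47 to 3.79) in library 2. A UMI of it was found in 92.0% of tumour cells of library 1, at a median depth of 19256 UMIs, and in 20.3% of leucocytes of that library, at 4775 UMIs. Krt19, type I and the smallest keratin, stood at 1.27 (1.24 to 1.30) in library 1 and 1.72 (1.61 to 1.84) in library 2. It was thus the only one of these 4 genes at a higher level in library 2. A Krt19 UMI was found in 56.4% of tumour cells of library 1, 90.5% of library 2 (median 40333 UMIs) and 4.91% of library 1 leucocytes. The simple keratins Krt80 and Krt23 were minor, Krt80 at 0.0500 and 0.0845 in libraries 1 and 2 and Krt23 at 0.00538 in library 1 with no UMI in library 2.

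The keratins of stratified epithelia were not absent from tumour cells, and among them Krt14 was by far the highest. Krt14, the type I keratin of basal cells (chr11:100203162-100207548), stood at 4.06 (4.01 to 4.11) in library 1 and 2.15 (2.03 to 2.28) in library 2, between Krt7 and Krt19 in library 1. It was detected in 80.6% of library 1 tumour cells and 80.0% of library 2 tumour cells, against 29.5% of library 1 leucocytes. Krt5, its usual type II partner, was at 0.0512 (0.0455 to 0.0574) in library 1 and had no UMI in library 2, and 3 UMIs there would be a level of 0.00563. In library 1 leucocytes Krt5 was at 0.0773 (0.0659 to 0.0902), above the level in tumour cells. Krt14 was thus counted in most tumour cells, and Krt5 no higher there than in leucocytes. Cells with at least 3 UMIs of both Krt5 and Lgals7 had been moved to the keratinocyte-like gate, which limited Krt5 in tumour cells. No tumour cell of library 1 held more than 3 Krt5 UMIs, so the low Krt5 follows in part from the gate. Krt15, a basal keratin of the follicle bulge, was at 0.0512 and 0.0938 in libraries 1 and 2.

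Of the wound or stress keratins, Krt16 was at 1.46 (1.43 to 1.49) in library 1 and 0.754 (0.682 to 0.832) in library 2, and Krt17 at 0.603 (0.583 to 0.623) and 0.0601 (0.0411 to 0.0848). Krt6b and Krt6a, their type II partners, were at 0.369 and 0.277 in library 1 and had no UMI in library 2. The UMIs of Krt6b and Krt6a came mostly from few cells, those of Krt17 and Krt16 less so. A Krt16 UMI was found in 48.8% of library 1 tumour cells. The 27 library 1 tumour cells highest in each gene, 1% of the gate, held 86.6% of the Krt6b UMIs, 76.4% of Krt6a, 46.8% of Krt17, 33.5% of Krt16 and 17.5% of Krt14, against 4.69% of Krt18 and 4.53% of Krt8. The share was 88.2% for Krt1, the type II keratin of suprabasal epidermis, and 98.7% for Krt79, a keratin of the follicle canal, of which 1 cell held 210 of the 387 UMIs. Some cells high in these genes had little Krt8 and Krt18. In 1 of them Krt17 was at 324 and Krt6a at 119, with Krt8 at 0 and Krt18 at 2.11. In another Krt14 was at 175 and Krt6a at 120.5, with Krt8 at 1.06 and Krt18 at 2.47. Whether such cells are tumour cells or keratinocytes that missed the other gate was not tested.

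Without each gene's own 27 top cells the tumour level of library 1 fell to 0.0663 for Krt6a, 0.0503 for Krt6b, 0.0065 for Krt1 and 0.0451 for Krt5. Leaving out top cells can only lower a level, so these values are not set against those of leucocytes, which were not trimmed. Krt16 and Krt17, at 0.985 and 0.325 after the same step, were still above the untrimmed leucocyte levels of 0.253 and 0.135. At 5 or more UMIs, Krt16 was found in 350 tumour cells of library 1 and Krt17 in 141, but Krt6a in 7 and Krt6b in 6. Only 10 of the 2651 cells had more Krt14 than Krt8 and Krt18 together, and 3 of the 105 cells of library 2. Krt10, the type I suprabasal keratin, stood at 0.188 (0.177 to 0.200) and 0.178 (0.144 to 0.218) in libraries 1 and 2, and its usual partner Krt1 was at 0.0543 and 0.

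**Figure D2:**
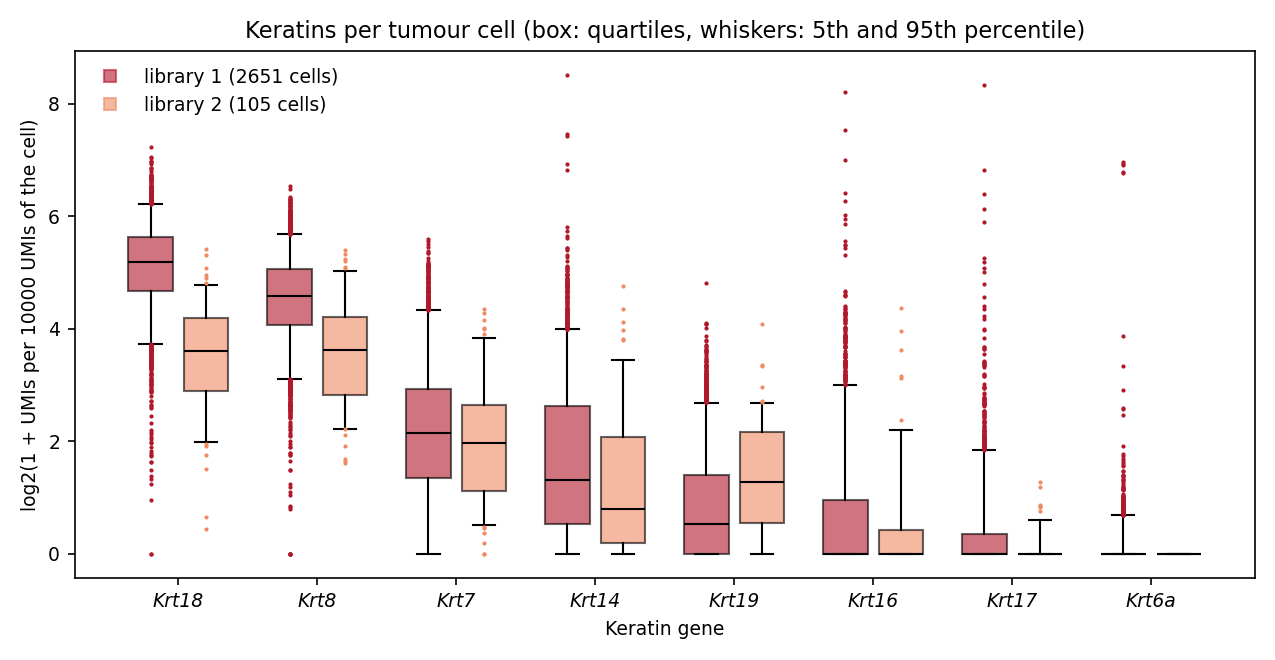
Levels of 8 keratin genes in single tumour cells of library 1 (2651 cells) and library 2 (105 cells), as the log2 of 1 plus UMIs per 10000; boxes are quartiles, whiskers the 5th and 95th percentiles and points the cells beyond them. Krt18 and Krt8 have medians of 35.4 and 23.0 per 10000 in library 1, while Krt6a is at 0 in most cells and reaches 124 in a few.

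Tumour cells with a UMI of Epcam, the epithelial adhesion molecule, or Cldn4, a tight junction claudin, held more keratin than those with neither. In library 1 Krt7 and Krt19 differed more than Krt8 and Krt18. Both genes belong to the tumour gate. Each cell was thinned to 2000 UMIs for this comparison, which left out 26 cells of library 1 and 1 of library 2. In library 1 the summed keratin level was 80.6 (79.8 to 81.5) in 2211 cells with either gene. It was 65.2 (63.5 to 66.9) in 414 cells with neither. In library 2 the levels were 40.6 (37.4 to 44.0) in 74 and 24.2 (20.4 to 28.4) in 30 cells. The log2 difference was 0.31 and 0.75. Vim, the mesenchymal intermediate filament gene vimentin, went the other way, at 28.3 with and 55.6 without in library 1 and 24.7 and 45.7 in library 2.

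Krt7 was at 6.02 with either gene and 2.46 with neither in library 1 (log2 difference 1.29). In library 2 it was at 4.12 and 2.67 (0.63), where the intervals overlapped. The library 1 difference in Krt7 was 0.79 at 1000 and 1.65 at 5000 UMIs per cell. Krt19 was at 1.44 and 0.543 in library 1 (1.41) and at 2.57 and 0.833 in library 2 (1.62). Krt14 was at 4.48 and 3.16 (0.50) and at 3.58 and 0.833 (2.10), the latter on 5 UMIs in cells without. Krt8 at 26.5 and 20.3 and Krt18 at 39.6 and 30.5 differed less in library 1. Krt6b and Krt6a were lower with either gene, at 0.109 against 1.64 and 0.131 against 1.26. They were detected in 2.66% and 2.17% of the cells with neither gene, so a few cells set these values. Krt16 at 1.48 against 2.32 and Krt17 at 0.509 against 1.50 lay the same way, but Krt17 did not keep this direction when cells were thinned to 5000 UMIs.

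Cycling tumour cells, those with a UMI of at least 3 of 12 cell cycle genes after thinning, held less Krt14 in library 1, while their total keratin overlapped that of other tumour cells. In library 1 the summed keratin level was 76.8 (74.6 to 79.0) in 298 cycling and 78.4 (77.6 to 79.2) in 2327 other cells. Krt14 was at 2.23 (1.87 to 2.64) in cycling and 4.53 (4.34 to 4.73) in other cells, a log2 difference of -1.02. Krt16 was lower as well, at 0.956 against 1.70, as was Krt17, at 0.352 against 0.705 on 21 UMIs. Krt7 was higher in cycling cells, at 6.78 (6.13 to 7.47) against 5.29 (5.08 to 5.50). Library 2 had only 13 cycling cells, with Krt14 at 2.31 (0.847 to 5.02) against 2.86 (2.13 to 3.75), a difference that was not detectable at this depth. These differences are between cells of 1 library and carry counting error only.

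The 51 keratinocyte-like cells were led by the basal pair, Krt14 at 136 (133 to 138) and Krt5 at 53.0 (51.6 to 54.4), the latter a gate gene that had to be present. Krt17 followed at 36.2 (35.0 to 37.3), Krt6a at 25.1 (24.1 to 26.1), Krt6b at 17.5 (16.7 to 18.3) and Krt16 at 16.0 (15.3 to 16.8). Krt14 was found in all 51 cells, at a median of 143 and between 3.21 and 351, and Krt17, Krt6a and Krt16 in 47, 43 and 42 cells. Krt6b was more divided, with a UMI in 32 cells, a median of 2.08 and a highest value of 144. Reads of the near-identical Krt6a and Krt6b, and of Krt14, Krt16 and Krt17, may have been split between the copies by the counting, so their single values are uncertain.

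Over all 51 cells Krt8 was at 4.27 (3.88 to 4.69) and Krt18 at 6.48 (5.99 to 6.99). Their medians over cells were 2.01 and 1.61, so a few cells held much of both, and in 49 of the cells Krt14 outnumbered Krt8 and Krt18 together. Summed over those 49 cells, Krt8 was at 2.41 (2.10 to 2.74) and Krt18 at 3.71 (3.32 to 4.12). Library 1 leucocytes, summed over cells, were at 2.70 (2.63 to 2.77) for Krt8 and 3.16 (3.09 to 3.24) for Krt18. In the 49 cells Krt8 was thus not above the leucocyte level. The part of free RNA in the Krt8 and Krt18 of keratinocyte-like cells was not tested.

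Krt1 and Krt15 divided the keratinocyte-like cells. Krt1 was counted in 11 cells and Krt15, the keratin of follicle bulge and basal cells, in 25, and only 2 cells held both, while 17 held neither. The 7 cells with 20 or more Krt1 UMIs had no Krt15 UMI. Cells with Krt1 had a median of 25432 UMIs and those without 12471. In the 11 cells with Krt1, Krt6b was at 42.3 against 7.49 in the 40 without. Krt6a was at 41.7 against 18.4, Krt16 at 34.5 against 8.62 and Krt17 at 50.6 against 30.4. Krt5 and Krt15 lay the other way, Krt5 at 38.8 against 58.7 (medians over cells 36.6 and 59.3) and Krt15 at 0.473 against 2.33. Krt14 had no clear direction, since it summed to 117 against 143 but its median over cells was 144 with and 138 without Krt1. Of the markers outside the family, Krtdap, a keratinocyte differentiation protein, was at 29.3 against 11.2, and Col17a1, which anchors basal cells, at 0.169 against 3.05. Krt10 was low in both, at 0.406 (0.210 to 0.708) and 0.136 (0.0653 to 0.250), and Krt2 and Krt77, keratins of the upper epidermis, had no UMI in any cell. Cells were split by Krt1 after the values were seen, so this is a description of cells of 1 library.

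**Figure D3:**
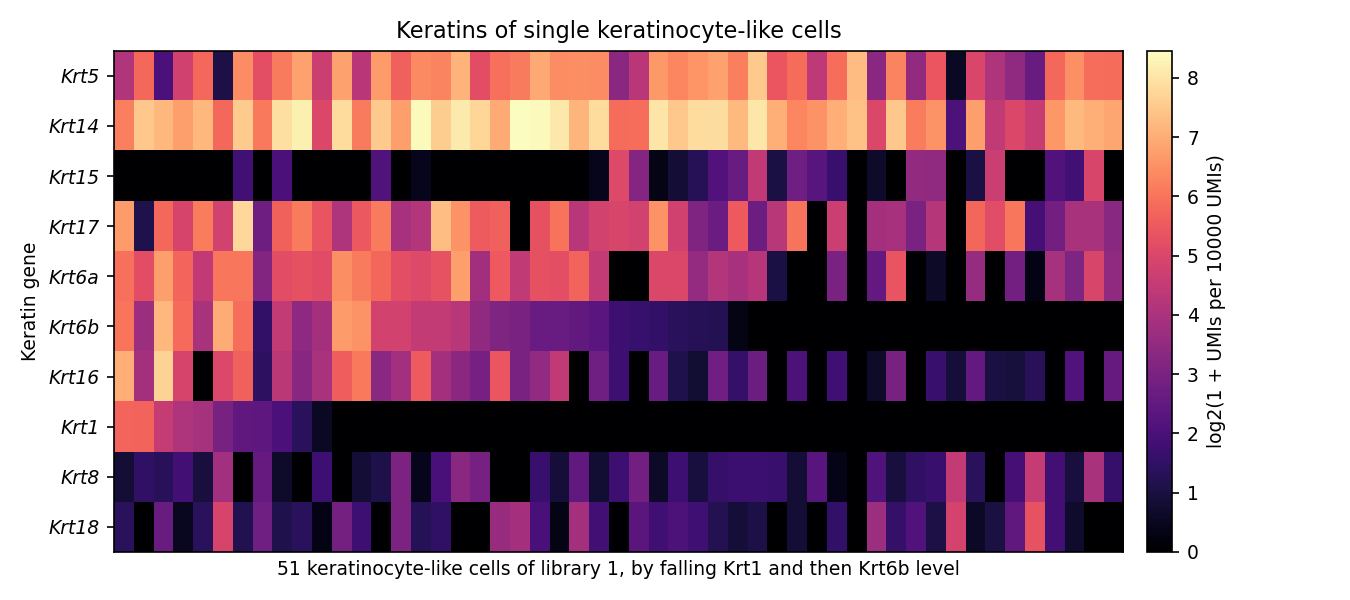
Levels of 10 keratin genes (rows) in the 51 keratinocyte-like cells of library 1 (columns), ordered by falling Krt1 and then Krt6b, as the log2 of 1 plus UMIs per 10000. Krt5 and Krt14 run through nearly all cells, the 11 cells with Krt1 sit on the left with high Krt6a, Krt6b and Krt16, and Krt15 lies mostly to the right.

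Set against tumour cells, keratinocyte-like cells had higher stratified and lower simple keratins. A gene was called at a difference of 4-fold or more, among genes with at least 50 UMIs over both gates. Of 17 keratin genes tested, 8 were higher, where 3.73% of the 13009 genes tested were, and 3 were lower, where 2.15% were. Within library 1, the only library that holds both gates, the same 8 (3.8% of all genes tested) and 3 (2.18%) genes were called among 15 tested, and the members' median log2 difference was 3.46, against 0.01 over all genes. That median includes Krt5, which the gate fixed, and would be lower without it. The gate required Krt5, so its call is no finding, and without it 7 of 16 genes were higher in the pooled comparison and 7 of 14 within library 1. Those genes, with pooled folds, were Krt6a (99.0-fold), Krt1 (76.9-fold), Krt17 (64.9-fold), Krt6b (51.8-fold), Krt14 (34.8-fold), Krt15 (32.8-fold) and Krt16 (11.5-fold). Lower were Krt18, Krt8 and Krt19, by 2.48, 2.51 and 2.55 on the log2 scale. Krt19 had 23 UMIs in keratinocyte-like cells, so it reached the minimum only through tumour cells. Its call thus follows in part from the filter. Krt7 at 1.91 against 6.01, Krt10 at 0.214 against 0.187, Krt80 at 0.0582 against 0.0529 and Krt79 at 0.0971 against 0.0616 were not called. In 2 keratinocyte-like cells Krt8 and Krt18 together outnumbered Krt14. In the other 49 cells Krt7 was at 1.01, more than 4-fold below the tumour level, so its missing call rests on those 2 cells. Krt18, Krt8 and Krt19 were lower there as well, at 3.71, 2.41 and 0.107.

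The partners of keratins in the cell differed alongside, and the shares of all genes higher, 3.73% pooled and 3.8% within library 1, are the background for the counts that follow. All 8 tested genes of the cornified envelope, the protein shell of mature keratinocytes (13 were listed), were higher in keratinocyte-like cells, among them Krtdap at 16.4 against 0.150 and Sprr2a3, a cross-linked envelope protein, at 12.3 against 0.0553. Of 13 genes of desmosomes and filament anchors, the junctions to which keratin filaments attach, 7 were higher in the pooled comparison and 6 within library 1, with Dsp (desmoplakin) at 7.35 against 0.378 and Dsg3, a desmoglein, at 1.74 against 0.00985. Jup, plakoglobin, at 3.07 against 0.754, made the difference between the counts. Of 5 hemidesmosome genes only Col17a1 was higher. Among 10 tested epithelial transcription factors 5 were higher, Ehf, Tfap2c, Grhl1, Trp63 and Ovol1, and within library 1 Klf5 as well. None of the 5 other intermediate filament genes tested was higher, and 2 were lower, Vim at 6.96 against 35.8 and Nes. None of 12 cell cycle genes was called. Nes had 2 UMIs in keratinocyte-like cells and reached the minimum only through tumour cells, so its fold is a bound. Tgm3 of the cornified envelope had 47 UMIs in tumour cells and reached the minimum only through keratinocyte-like cells. The calls of both follow in part from the filter.

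How the gate was drawn decided how many cells it held. Of cells with 3 or more Lgals7 UMIs, 1331 had fewer than 3 of Krt5, and 3 cells had the reverse. At 1 UMI of both genes the gate took 417 cells, of which 212 were tumour cells by the main gate, and Krt14 and Krt8 stood at 16.1 and 18.0. At 5 UMIs it took 44 cells, with Krt14 at 148 and Krt8 at 2.83. Without any keratin in the gate it took 721 cells, 520 of them tumour cells by the main gate, with Krt14 at 12.1 and Krt8 at 23.0. The thresholds on Krt5 and Lgals7 moved together in these gates. Against tumour cells, the calls of Krt15 and Krt16 were lost at 1 UMI, and those of Krt14, Krt15 and Krt16 without any keratin in the gate, where Krt79 was called.

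Keratin RNA was also counted in leucocytes, a cell type not known for simple or basal keratins, most of all in the library with the most tumour cells. Leucocytes of library 1 held 7.78 keratin UMIs per 10000 (7.67 to 7.90), 9.97% of the tumour level of that library, and 90.4% of them had at least 1 keratin UMI. Leucocytes of library 2 were at 0.614, or 1.63% of its tumour level, and those of libraries 3 and 4, where tumour cells were absent or a single cell, at 0.334 and 0.288. Neutrophils, monocytes or macrophages, T or NK cells and fibroblasts of library 1 were at 9.04 (8.54 to 9.57), 7.46 (7.33 to 7.60), 7.19 (6.85 to 7.54) and 9.22 (8.89 to 9.56), and conventional dendritic cells, the highest of the named leucocyte types, at 13.6. In library 1 Krt18 made 40.7% and Krt8 34.7% of leucocyte keratin, beside 48.9% and 32.2% in tumour cells.

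The ratio to the tumour level was not the same for all keratins. In library 1 it was 8.29% for Krt18, 10.7% for Krt8, 6.67% for Krt7 and 7.02% for Krt19. It was higher for several less abundant keratins, at 14.8% for Krt14, 21.6% for Krt10, 22.3% for Krt17, 41.0% for Krt6a, 71.6% for Krt80 and 151% for Krt5. The keratinocyte-like gate limited the Krt5 level of tumour cells, so the Krt5 ratio follows in part from the gate. In library 2 the ratio was 0.849% for Krt18, 1.13% for Krt8, 1.12% for Krt7 and 0.907% for Krt14, and 24.0% for Krt10. The source of this RNA was not tested. In libraries 3 and 4 the leucocytes had another set of keratins, led by Krt83 (36.0%) and Krt80 (25.0%) in library 3 and by Krt80 (74.6%) in library 4.

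**Figure D4:**
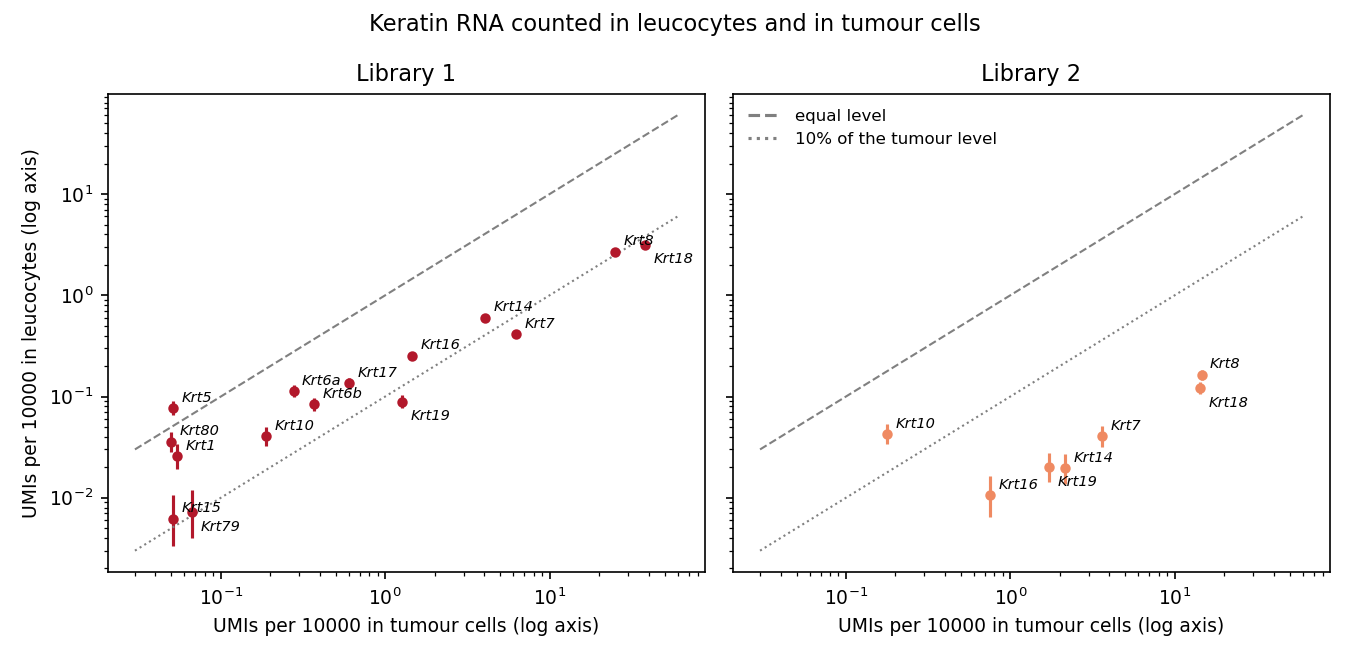
Level of each keratin gene in leucocytes against its level in tumour cells of library 1 (left) and library 2 (right), in UMIs per 10000 on log axes with 95% Poisson intervals for leucocytes; the dashed line is equality and the dotted line 10% of the tumour level. Krt18 and Krt8 lie near the dotted line in library 1 and well under it in library 2, and Krt5 lies above equality in library 1. The keratinocyte-like gate limited the Krt5 level of tumour cells.

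Against the leucocytes of their own library, tumour cells of library 1 were higher by 4-fold or more in 11 of 16 keratin genes tested, where 10.3% of 13867 genes were, and lower in 1, Krt83, where 11.3% were. In library 2 they were higher in 8 of 10, where 9.44% of 12083 genes were, and lower in 1, again Krt83, where 15.8% were. Krt8, Krt18, Krt7, Krt19, Krt14, Krt16, Krt15 and Krt10 were called in both libraries. Krt17, Krt6b and Krt79 were called in library 1 and, under the minimum of 50 UMIs, not tested in library 2. Krt15 passed the minimum in library 2 only through tumour cells, leucocytes there having no UMI of it. Its place among the 8 thus follows from the filter. Krt14, Krt16 and Krt19 had 37, 20 and 38 UMIs in those leucocytes, so they too reached the minimum only through tumour cells. In library 1 this held for Krt15 and Krt79, with 13 and 15 leucocyte UMIs. Krt83 reached the minimum only through leucocytes, with 3 UMIs in tumour cells of library 1 and 0 in library 2. Its folds are thus bounds, and its calls as lower follow from the filter. Pooled over libraries the counts were 15 of 20 higher (9.83% of 16375 genes) and 2 lower (19.6%), and Krt6a, Krt1, Krt13 and Krt42 were called only there, where tumour cells are mostly of library 1 and leucocytes of all 4. Krt13 with 63 UMIs in tumour cells and 3 in leucocytes, and Krt42 with 60 and 0, also passed only through tumour cells. So did Krt15 and Krt79, with 13 and 16 UMIs in leucocytes. The 2 lower, Krt83 and Krt86, passed only through leucocytes, with 3 and 2 UMIs in tumour cells. At a minimum of 200 UMIs 13 keratins were higher, without Krt13 and Krt42. Krt80 was at 0.0500 in tumour cells and 0.0358 in leucocytes of library 1, while over all libraries leucocytes were higher, at 0.145 against 0.0529.

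Of the genes that work with keratins, 9 of 13 desmosome and filament anchor genes were higher in tumour cells within library 1 (10.3% of all genes) and 5 of 7 in library 2 (9.44%). Of the epithelial transcription factors outside the tumour gate, which used Elf3 and Grhl2, 5 of 7 were higher in library 1 and 3 of 4 in library 2. The cornified envelope list gave 1 higher, Sprr1a, and 1 lower, Tgm1 (transglutaminase 1), of 8 within library 1, but 6 higher in the pooled comparison (9.83% of all genes). Hemidesmosome genes were higher in 2 of 5 in library 1 and 4 of 4 in library 2, and cell cycle genes in none and 3 of 12. Pkp1, Evpl, Eppk1 and Dsc2, called in library 1, had 27, 39, 15 and 11 leucocyte UMIs over all libraries. Trp63, Ovol1 and Sprr1a had 7, 27 and 46. These genes reached the minimum of 50 UMIs only through tumour cells, so their calls follow in part from the filter. In the pooled comparison this also held for Tgm3, Sprr2d and Sprr1b, with 15, 39 and 42. Leucocyte counts within library 1 alone were not examined. Pkp2, Dsg2 and Ehf, also called there, had 64, 57 and 163 leucocyte UMIs over all libraries. They and other called genes may thus also have reached the minimum in library 1 only through tumour cells. Which genes of library 2 did so was not examined.

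A few keratin genes had their highest levels outside epithelial cells. Krt83, a type II keratin of the hair cortex (chr15:101485130-101491512), had 492 UMIs, of which 85.2% were in leucocytes and 0.610% in tumour cells. In T or NK cells it was at 0.268 (0.206 to 0.342), 0.190 (0.111 to 0.305), 0.761 (0.648 to 0.889) and 0.155 (0.103 to 0.224) in libraries 1 to 4, and in monocytes or macrophages it stayed at or below 0.0105. Library 3 was thus highest, and the intervals of the other 3 libraries overlapped. In T or NK cells with a UMI of Rora, a nuclear receptor of helper and innate lymphoid cells, Krt83 was at 0.754, 0.213, 0.957 and 0.298, and in those without at 0.0874, 0, 0.122 and 0.0111, so it was higher with Rora in libraries 1, 3 and 4. In library 2 only 21 cells lacked Rora, their upper limit of 0.387 lies above 0.213 (0.124 to 0.341), and 10 of the 17 UMIs of the other side were in 1 cell, so a difference was not detectable. It was at 0, 0.0604, 0.133 and 0 in cells with Foxp3, the regulatory T cell factor, and at 0.279, 0.267, 0.933 and 0.164 in those without, with intervals that overlapped in libraries 1, 2 and 4. Further splits used Tcrg-C1, a T cell receptor gamma gene, Il7r, Cd8a and Ncr1. With Tcrg-C1, Krt83 was at 1.14 in library 1 and 3.23 in library 3, against 0.190 and 0.603 without, and intervals overlapped in library 4. With Il7r, Krt83 was higher in libraries 1, 3 and 4, at 0.392, 0.944 and 0.298 against 0.154, 0.344 and 0.0310. In library 2 it was lower, at 0.0507 on 3 UMIs against 0.464 on 14 UMIs, 10 of them in 1 cell. With Cd8a, Krt83 was lower than without it in library 1, where the intervals did not overlap. In library 3 Krt83 was higher with Cd8a, but the intervals overlapped, and cells with Cd8a were few in libraries 3 and 4. Ncr1 kept no single direction. The median depth of cells with Rora was above that of cells without it in each library. In neutrophils Krt83 was at 0.0373, 0.0470, 0.0921 and 0.0586.

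Krt86, a neighbouring hair keratin, had 122 UMIs, of which 82.8% were in leucocytes, and in neutrophils it was at 0, 0.0286, 0.0581 and 0.0864 in libraries 1 to 4. T or NK cells had no Krt86 UMI in any library. Krt83 and Krt86 are close copies, with Krt81 a further one, and reads between them may have been split by the counting.

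Krt80, a type II keratin found in many epithelia, had 51.7% of its 3048 UMIs in leucocytes. In monocytes or macrophages it was at 0.0394 (0.0303 to 0.0503), 0.167 (0.142 to 0.195), 0.140 (0.111 to 0.174) and 0.232 (0.218 to 0.248) in libraries 1 to 4, so library 1 was lowest and library 4 highest. Conventional dendritic cells had 0.0223 on 2 UMIs in library 1, then 0.383, 0.0952 and 0.271, while T or NK cells stayed at or below 0.0336. Monocytes or macrophages without a UMI of C1qa, a complement gene of resident macrophages, had more Krt80 than those with it in all 4 libraries, at 0.127, 0.234, 0.152 and 0.249 against 0.0363, 0.130, 0.0923 and 0.186, with overlapping intervals in library 3.

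Fibroblasts held Krt10 at 0.145, 0.138, 0.150 and 0.147 in libraries 1 to 4, with intervals that all overlapped. Krt19 was at 0.207, 0.116, 0.131 and 0.197 and Krt23, a type I keratin of simple epithelia, at 0.00310, 0.0662, 0.0196 and 0.0439, and fibroblasts held 85.2% of all Krt23 UMIs. In library 4, where Ptprc was found in 51.2% of these cells, Krt19 was at 1.05 in 156 fibroblasts without and 0.139 in 972 with a UMI of Dpt (dermatopontin), and Krt23 at 0.386 against 0.0209. Of those without Dpt, 46 cells held Krt19 and 23 held Krt23, with 34 of the 103 Krt23 UMIs in 1 cell. Cells without Dpt were also shallower there, with a median of 9657.5 UMIs against 39681.5. Krt19 was higher without Dpt in libraries 2 and 3 as well, at 0.388 against 0.0833 and 0.193 against 0.120. In library 2, 53 of the 155 UMIs without Dpt were in 1 cell. In library 1 Krt19 was lower without Dpt, at 0.169 against 0.248, with overlapping intervals. Krt23 was not higher without Dpt in library 3, at 0.00831 on 4 UMIs against 0.0216, with overlapping intervals. The splits by Rora, Foxp3, Tcrg-C1, Il7r, Cd8a, Ncr1, C1qa and Dpt were chosen after the values were seen. They are not all of the splits made. Krt80 of monocytes or macrophages was also split by Ly6c2, Arg1 and Mrc1, and none of these kept a single direction over the libraries. The same held for Krt19 of fibroblasts split by Lrrc15 and Acta2. Krt23 was also split by Lrrc15, Acta2 and Pi16, and Krt86 of neutrophils by Retnlg, Cxcr2 and Cd274, with values not given.

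**Figure D5:**
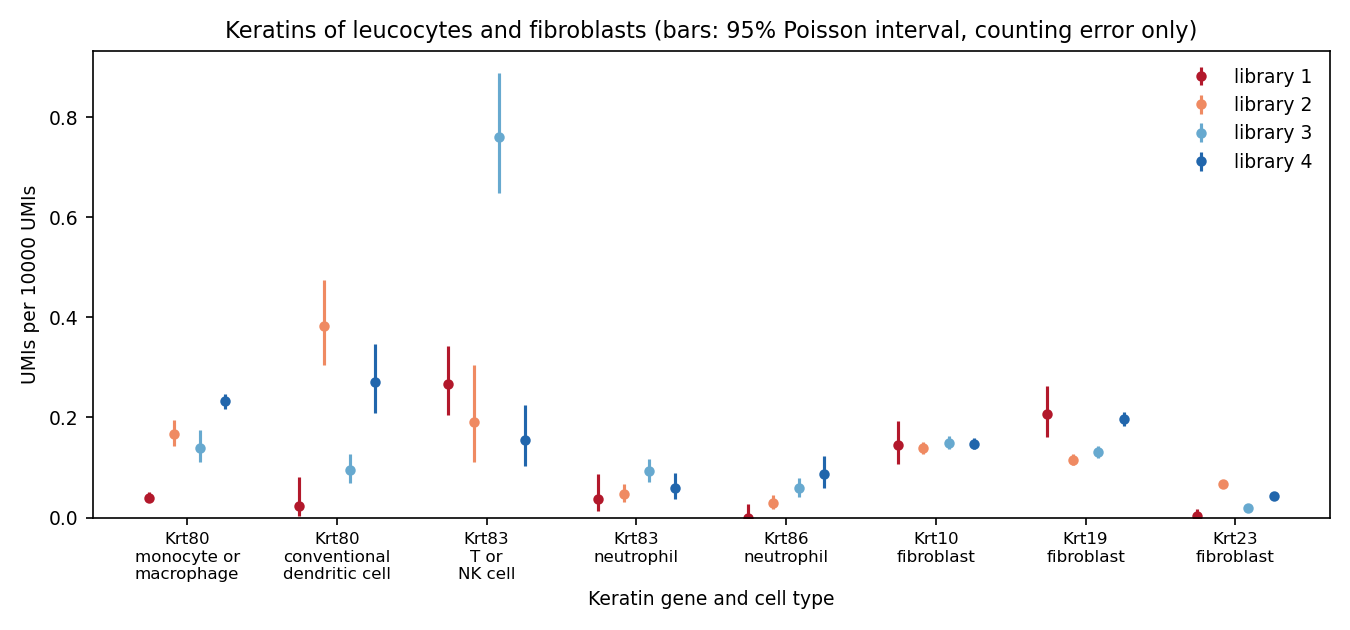
Levels of keratin genes of leucocytes and fibroblasts by library of unknown treatment, in UMIs per 10000 with 95% Poisson intervals (counting error only). Krt83 of T or NK cells reaches 0.761 in library 3, Krt80 of monocytes or macrophages runs from 0.0394 in library 1 to 0.232 in library 4, and Krt10 of fibroblasts stays between 0.138 and 0.150.

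The single tumour-gated cell of library 4 had 4034 UMIs, with 21 of Krt18, 5 of Krt19, 2 of Krt8 and 1 of Krt7. The 21 genes with 1 to 99 UMIs had the following places. Krt13, a mucosal keratin, had 63 of 90 UMIs in tumour cells, and Krt42, a type I keratin related to Krt17, 60 of 87. Krt88, a hair keratin, had 24 of 45 there. Krt20, of simple epithelia, had 32 of 68 UMIs in fibroblasts and 1 in tumour cells, and Krt36, a hair keratin, 18 of 20 in fibroblasts. Krt71, of the inner root sheath of hair, had 6 of 7 UMIs in keratinocyte-like cells, and Krt4, a mucosal keratin, had all of its 8 in leucocytes. The 17 hair keratins together reached 699 UMIs, with 8 genes detected. Genes without any UMI may still be expressed below the level that 3 UMIs would give, which is 0.000477 in tumour cells and 0.0291 in keratinocyte-like cells.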

How the data were processed

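CD45-sorted cells from tumours of 4 samples were profiled by 10x droplet sequencing. The deposited matrix holds UMI counts per gene and barcode, which the authors made with Cell Ranger (3.0.2 in the methods, 6.1.2 in the matrix header, 2.1.1 in the submitters' processing notes, with build mm10). Whether depth was equalised between libraries is not stated. All 55450 gene IDs matched GENCODE vM21.

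Barcodes with at least 300 genes and at most 15% mitochondrial UMIs were kept. Cells were gated on fixed markers, and keratinocyte-like cells on 3 UMIs of both Krt5 and Lgals7. Library totals were 108363974, 81011506, 69144957 and 96221672 UMIs. Counts were summed per gate and library and given per 10000, with exact 95% intervals for counting error only. Genes with 50 or more UMIs over both gates were called at 4-fold, with groups below 3 UMIs set to that floor. Splits of tumour cells used cells thinned to 2000 UMIs. Keratins with 100 or more UMIs are named, and other genes come from lists with up to 4 examples each. The members and lists were chosen with earlier results of these data known. The cycling threshold of 3 genes and the calls within libraries were chosen after values were seen. So were the splits by Krt1, Rora, Foxp3, Tcrg-C1, Il7r, Cd8a, Ncr1, C1qa and Dpt. Doublets were treated by leaving out the highest 5% of Scrublet scores as an alternative (383, 409, 339 and 435 barcodes in libraries 1 to 4). Alternatives also covered the filters, gates, thinning depth and leaving out each library. Scripts were tested on simulated data and used Python 3.11.15, numpy 2.4.6, scipy 1.17.1, pandas 2.3.3, matplotlib 3.10.9 and scanpy 1.11.5.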

Additional observations from a re-analysis of the deposited data

Results flagged for a closer look

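Barcodes that the filter on genes and mitochondrial UMIs removed also held keratin UMIs, above the level that a count of 0 allows. Their keratin level was 24.7 per 10000 (22.9 to 26.6) in 264 barcodes of library 1, 6.40 (5.59 to 7.28) in 288 of library 2 and 0.737 (0.450 to 1.14) in 260 of library 4. In library 3 the 119 removed barcodes held 3 keratin UMIs. No comparison of the report uses these barcodes.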

How the results depend on the processing

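Of 141 values recomputed under alternatives, 92 moved by less than the bound set for them, and 49 moved by more. Some of the 92 were fixed in advance, since leaving out a library without cells of a gate cannot change that gate's values. Levels, shares and counts cannot change sign, so only the differences between splits of tumour cells could have reversed. None did where its interval excluded no difference, while the difference in keratin of cycling cells changed sign. The Krt17 difference with Epcam or Cldn4 was not among the 141. The tumour keratin level of 74.6 became 75.8 with 1 more gate marker, 73.4 with 1 fewer, 66.8 with mixed barcodes kept, 75.4 without the highest doublet scores and 76.3 after thinning to 1000 UMIs, and it ranged from 37.6 to 78.1 when each library was left out, with 37.6 without library 1. The 15 keratins called higher in tumour cells than in leucocytes became 8 to 15 when each library was left out, with 8 without library 1, and 8 within library 2, an alternative added after seeing the data. The log2 difference in keratin with Epcam or Cldn4 rose from 0.31 to 0.56 at 5000 UMIs. That in Krt7 of 1.29 was 0.79 at 1000 and 1.65 at 5000. The log2 difference in keratin of cycling cells went from -0.03 to 0.075 at 1000 and 0.037 at 5000 UMIs. The library 1 leucocyte level of 7.78 was 9.04 in neutrophils and 7.19 in T or NK cells alone. The cause of these shifts was not tested. The 8 keratins higher in keratinocyte-like cells became 6 with the 1-UMI gate, without Krt15 and Krt16, 6 with no keratin in the gate, without Krt14, Krt15 and Krt16 but with Krt79, and 10 at a minimum of 20 UMIs, and without library 1 that gate had no cells. Over all libraries Krt80 of monocytes or macrophages was at 0.173, and at 0.0966 without library 4, and Krt83 of T or NK cells at 0.375, and at 0.214 without library 3. No paired analysis was possible because the libraries are not linked to samples and no result comes from a test.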
